A study of Mus musculus with 2 samples.

Results

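The delta cells described here were chosen by their somatostatin RNA from droplet single-cell RNA counts of mouse pancreatic islets. Barcodes counted as cells if they had 500 or more detected genes and no more than 15% of their UMIs (unique molecular identifiers, 1 per captured RNA molecule) came from mitochondrial genes. A kept cell was taken as a delta cell when Sst gave at least 5 UMIs and at least 0.05% of its UMIs, with Gcg (glucagon) below 3%, Ins1 plus Ins2 (insulin) below 10% and Ppy (pancreatic polypeptide) below 2%. This gave 231 of 15692 kept cells. They were 130 of 8842 cells in the SpopβKO library (1.47%, Clopper-Pearson 95% interval 1.23 to 1.74) and 101 of 6850 in the Spop fl/fl library (1.47%, 1.20 to 1.79). Hhex was also detected in 79 of the 130 SpopβKO cells and in 58 of the 101 Spop fl/fl cells.

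The SpopβKO library came from islets of female mice, 12 weeks old, labelled as lacking Spop in beta cells. The Spop fl/fl library came from females of the same age with the floxed allele, and both were on a C57BL/6 background. Islets were digested out with collagenase, picked by hand, kept for 3 days in medium with 10 mM glucose, dispersed with trypsin and cleared of dead cells and debris. The Cre driver, the deleted exons and the number of mice behind each library are not given in the sources used here. With 1 library per genotype the values describe 2 libraries: intervals cover counting error only, the cells within each are no replicates of a genotype, and genotype could not be tested.

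Delta cells are the somatostatin cells of the islet. Somatostatin is a short peptide hormone that is released beside alpha and beta cells and restrains glucagon and insulin secretion through G-protein-coupled receptors. Mouse delta cells depend on the homeobox factor Hhex, respond to ghrelin and to urocortin 3 from beta cells, and often send out neurite-like projections. Sst is normally among the most abundant transcripts of a delta cell. SPOP is a substrate adaptor of the CUL3 ubiquitin ligase.

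Promoters are shown for Sst, whose RNA chose the cells, and for Chgb, a granule gene that differed between the libraries, because both hold the letters TGACGTCA of the cAMP response element, printed in capitals. Each runs from 250 bases before to 50 after the RefSeq start on GRCm38.p6. The Sst window is chr16:23890795-23891094 on the minus strand, and the letters begin 48 bases before the start. The Chgb window is chr2:132781392-132781691 on the plus strand, and the letters begin 72 bases before the start.
Sst: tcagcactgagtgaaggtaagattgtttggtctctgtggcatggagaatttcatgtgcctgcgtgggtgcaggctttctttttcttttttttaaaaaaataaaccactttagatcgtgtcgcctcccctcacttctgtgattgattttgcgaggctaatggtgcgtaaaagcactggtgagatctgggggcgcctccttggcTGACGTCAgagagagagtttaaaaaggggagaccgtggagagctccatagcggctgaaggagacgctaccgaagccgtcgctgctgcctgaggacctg
Chgb: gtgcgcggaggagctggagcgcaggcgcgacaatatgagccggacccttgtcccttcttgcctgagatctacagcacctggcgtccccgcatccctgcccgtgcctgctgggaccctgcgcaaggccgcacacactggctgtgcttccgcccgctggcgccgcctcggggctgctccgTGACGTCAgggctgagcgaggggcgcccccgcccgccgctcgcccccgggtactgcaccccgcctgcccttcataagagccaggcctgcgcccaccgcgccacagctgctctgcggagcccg
The motif reads the same on both strands and was found in 588 of 32851 promoters of this length (1.79%). Among the 20 genes ranked highest for delta cells, 15 promoters were matched and 0 held it. Among the 12 genes ranked highest in SpopβKO delta cells, 9 were matched and 1 held it, Chgb. A match describes letters in a window and is not a binding site.

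The deposited tables held 10033 barcodes with 89977773 UMIs for SpopβKO and 7768 barcodes with 82541585 UMIs for Spop fl/fl, and shared 21 barcodes, 0 of them delta cells. Spop itself was not lower where its loss is labelled: gated beta cells had 71.0 CPM (UMIs of the gene in 1000000 UMIs of the summed cells, here with the TMM scaling described further on) in the SpopβKO library and 48.3 in the Spop fl/fl library, a log2 ratio of 0.56 (0.45 to 0.67). A 3′ tag outside the deleted exons checks nothing, so the libraries are called by their labels throughout. Beta, alpha and PP cells for comparison were gated by insulin of at least 10%, Gcg of at least 3% and Ppy of at least 2%, outside the Sst limits. They numbered 3238, 1062 and 128 in the SpopβKO library and 1527, 1661 and 122 in the Spop fl/fl library.

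Delta cells had a median of 9521 UMIs and 3394 genes in the SpopβKO library and of 10793 UMIs and 3846 genes in the Spop fl/fl library. Summed over delta cells there were 1761703 SpopβKO and 1456480 Spop fl/fl UMIs, so a floor of 3 counts stands for 1.70 CPM in SpopβKO and 2.06 in Spop fl/fl delta cells. Each 3′ tag counts 1 transcript whatever its length, so levels of different genes are set side by side as CPM.

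Somatostatin RNA was low in most of the cells. The Sst share ran from 0.0520% through a median of 0.183% to 9.53% of UMIs in SpopβKO delta cells, and from 0.0507% through 0.205% to 11.5% in Spop fl/fl delta cells. It reached 0.5% in 30 SpopβKO and 21 Spop fl/fl delta cells, and 5% in 2 SpopβKO and 3 Spop fl/fl delta cells. Other hormones removed a sizeable part of the cells that met the Sst limits, 62 of 192 in the SpopβKO library and 74 of 175 in the Spop fl/fl library. The Spop fl/fl cell with the highest Sst share, 40.4%, was among those removed, because Ppy took 9.90% of its UMIs.

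**Figure D1:**
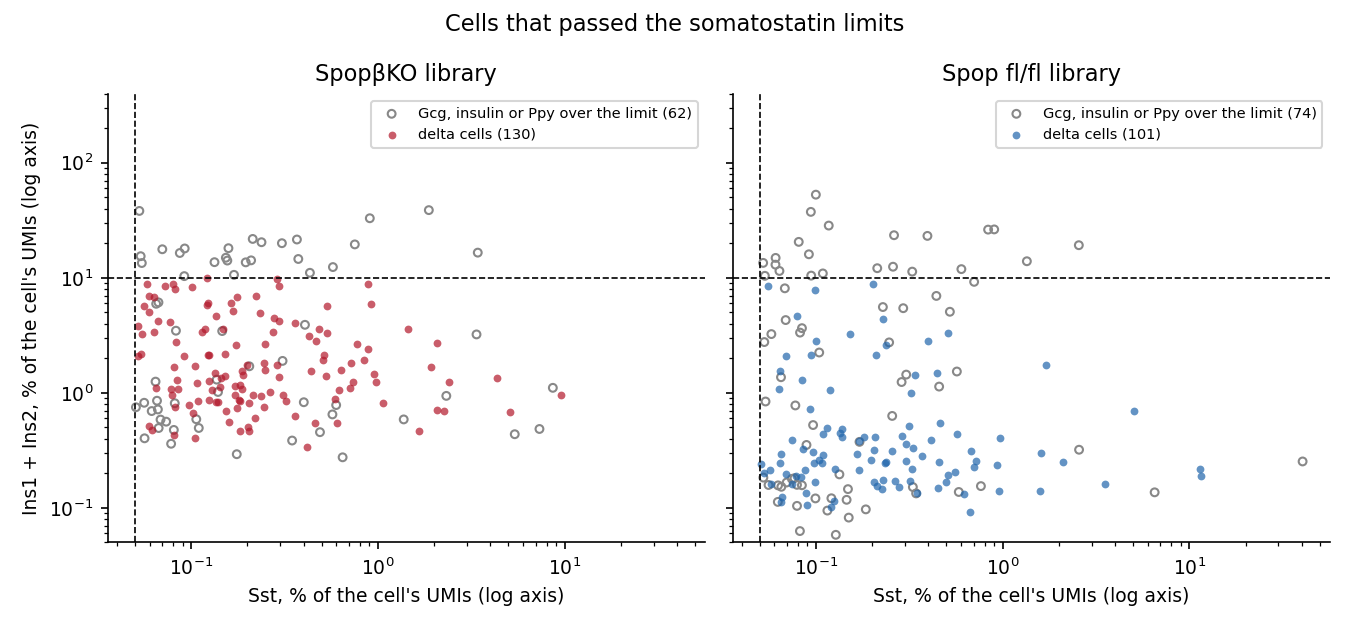
Share of UMIs from Ins1 plus Ins2 against the share from Sst, on log axes, for every cell that met the Sst limits in the SpopβKO library (left) and the Spop fl/fl library (right); filled points are delta cells, open points exceeded a Gcg, insulin or Ppy limit, and dashed lines mark 0.05% Sst and 10% insulin. Insulin shares of delta cells had a median of 1.54% in the SpopβKO library and 0.263% in the Spop fl/fl library.

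Cells just outside the Sst limit also held Hhex RNA. In the SpopβKO library Hhex was 30.4 CPM (11.2 to 66.2, on 6 UMIs) in the 9 delta cells at 0.05 to 0.06% Sst. It was 34.4 (14.8 to 67.8, on 8 UMIs) in the 23 cells outside, at 0.04 to 0.05%. In the Spop fl/fl library it was 38.9 in 5 delta cells inside and 114 in 13 cells outside, so these values also rest on few cells. Cells with the other hormones low and no Sst UMI had 2.16 in the SpopβKO and 1.78 in the Spop fl/fl library. At least 2 Hhex UMIs were found in 57 SpopβKO and 81 Spop fl/fl cells outside the gate, and in 40 SpopβKO and 42 Spop fl/fl delta cells. Of the cells outside, 34 in SpopβKO and 35 in Spop fl/fl had the other hormones low. More of the cells with at least 2 Hhex UMIs were thus outside the gate than inside it.

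Of the 4 markers besides Sst, Hhex, Cd24a and Ghsr were highest in delta cells of both libraries and Rbp4 was not. Hhex (ENSMUSG00000024986, chr19:37434810-37440731, plus strand, mm10), the homeobox factor, had 86.3 CPM in delta, 1.15 in beta and 3.55 in alpha cells of the SpopβKO library. In the Spop fl/fl library it had 106 in delta, 1.62 in beta and 3.01 in alpha cells. Its ratio over the higher of beta and alpha cells, 24.3-fold in SpopβKO and 35.3-fold in Spop fl/fl, ranked first. Cd24a, a small surface glycoprotein, had 100.5 CPM in SpopβKO and 141 in Spop fl/fl delta cells, and at most 11.9 in beta or alpha cells of either library.

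Ghsr, the ghrelin receptor, was scarce, with 9 UMIs in SpopβKO and 14 in Spop fl/fl delta cells, or 5.11 CPM in SpopβKO and 9.61 CPM in Spop fl/fl. Gated beta and alpha cells had at most 0.348. Rbp4, the retinol carrier, was at the alpha level: it had 1112 CPM in delta and 1479 in alpha cells of the SpopβKO library, and 1398 in delta and 1493 in alpha cells of the Spop fl/fl library. Beta cells had 148 in SpopβKO and 105 in Spop fl/fl. By Rbp4 the delta cells are therefore set apart from beta cells only.

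Shares of cells with a Hhex UMI gave the same order of cell types. The share was 60.8% of SpopβKO delta cells (51.8 to 69.2), against 1.11% of beta cells (median 10175.5 UMIs) and 2.54% of alpha cells (median 6451 UMIs). It was 57.4% of Spop fl/fl delta cells (47.2 to 67.2), against 1.44% of beta cells (median 9034 UMIs) and 2.17% of alpha cells (median 7934 UMIs). With each cell thinned to 3000 UMIs, Hhex was detected in 33.1% of 121 SpopβKO and 30.9% of 97 Spop fl/fl delta cells, and in at most 0.419% of beta or alpha cells. Thinning left out 9 SpopβKO and 4 Spop fl/fl delta cells as too shallow.

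Genes were compared between delta and both other cell types where delta, beta or alpha cells had at least 50 CPM in each library. Of 3478 such genes other than the gating hormones, 14 (percent called 0.403) were at least 2-fold higher in delta cells than in beta and in alpha cells of both libraries, and 0 (percent called 0) were at least 2-fold lower. The count of higher genes depended on that minimum and on the gate: it was 78 with at least 10 CPM and 173 with at least 1 count, and 25 to 31 in cells below 1% or 2% insulin, at 0.5% Sst or more, or of 3000 to 10000 UMIs. No test stands behind these counts, since each rests on 1 library per genotype. The genes are given below with their known roles.

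Gap43, a growth-cone protein of neurons, had 63.0 CPM in SpopβKO and 79.0 in Spop fl/fl delta cells, 15.8-fold and 21.3-fold over the higher of beta and alpha cells of those libraries. Ncam2, a neural adhesion molecule, had 51.1 in SpopβKO and 78.3 in Spop fl/fl delta cells, and at most 15.4 in PP cells. Stxbp5l, a tomosyn that binds SNARE proteins, had 128 in SpopβKO and 135 in Spop fl/fl delta cells. All 3 were lower in PP than in delta cells as well. Sez6l, a membrane protein of neurons, and Auts2, a gene of neuronal development, stood nearer the limit, at least 2.01-fold and 2.05-fold.

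The other genes past 2-fold had varied roles. Hspb1, a small heat shock protein, had 53.9 CPM in SpopβKO and 126 in Spop fl/fl delta cells. Stimate, a protein of junctions between endoplasmic reticulum and plasma membrane, had 51.1 in SpopβKO and 79.6 in Spop fl/fl delta cells. Shisal2b had 255 in SpopβKO and 269 in Spop fl/fl delta cells. Naaa (a lysosomal amidase), Igfbp7 (a secreted binding protein) and Leo1 (a subunit of the PAF1 complex) were between 2.01-fold and 2.32-fold. Leo1 was nearer to PP cells, with log2 ratios over them of 0.31 (−0.05 to 0.66) in SpopβKO and 0.66 in Spop fl/fl. For Naaa these ratios were 1.25 in SpopβKO and 0.63 in Spop fl/fl.

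Pyy, peptide YY, was higher in the summed delta cells than in beta and alpha cells but not than in PP cells. It had 7777 CPM in delta, 677 in beta, 2911 in alpha and 22837 in PP cells of the SpopβKO library. In the Spop fl/fl library it had 4495 in delta, 287 in beta, 2118 in alpha and 23473 in PP cells. Delta cells low in Sst were nearer the alpha level. At 0.05 to 0.1% and 0.1 to 0.2% Sst, Pyy was 3199 and 3332 in SpopβKO and 2731 and 3525 in Spop fl/fl delta cells. Further down the 20 ranked genes, 2210016F16Rik, Cdh2, Ciapin1, Tspan8 and Golim4 fell short of 2-fold in at least 1 library, and Tspan8 was higher in PP cells.

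**Figure D2:**
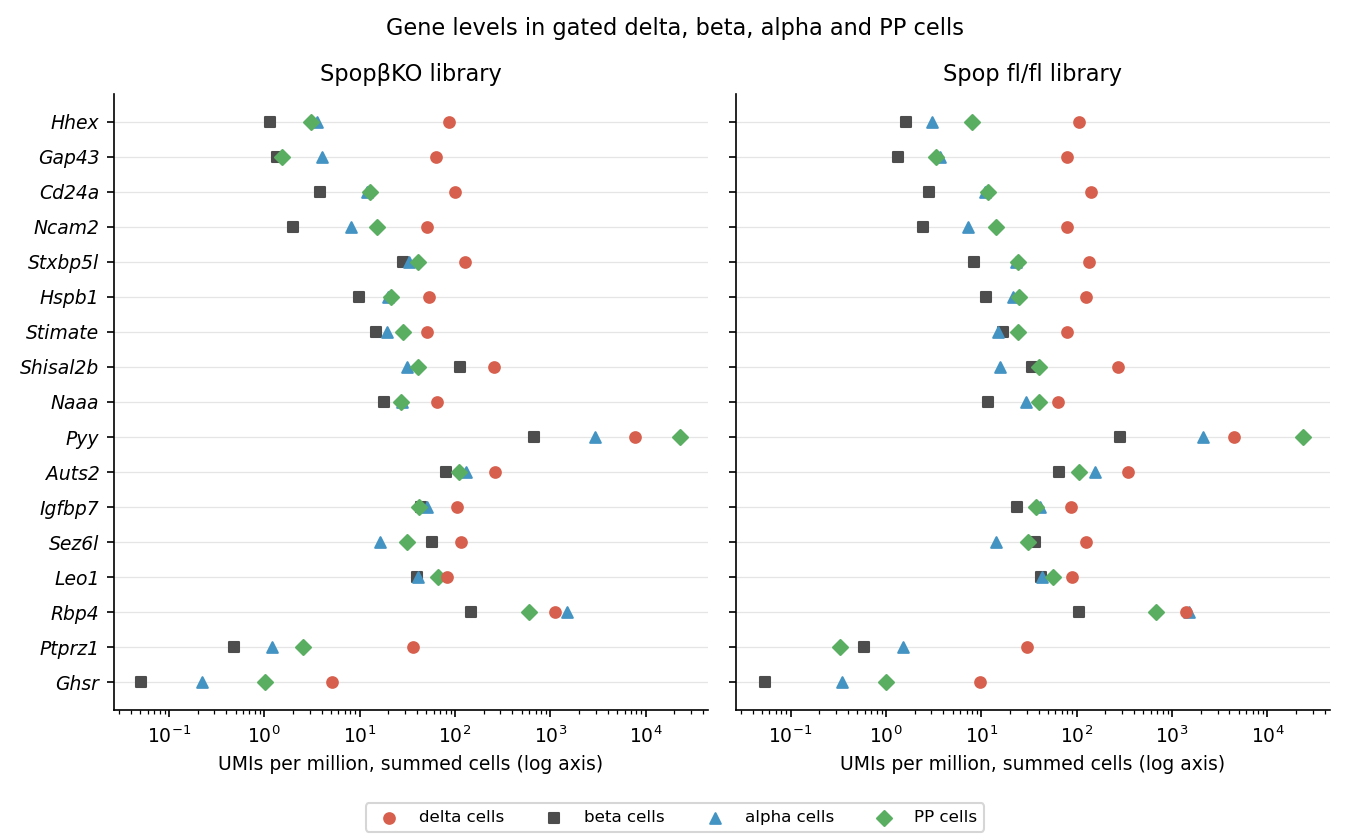
CPM on a log axis for the 14 genes at least 2-fold higher in delta than in beta and alpha cells of both libraries, and for Rbp4, Ptprz1 and Ghsr, in the SpopβKO library (left) and the Spop fl/fl library (right); circles are delta, squares beta, triangles alpha and diamonds PP cells. Of the 14 genes, Hhex in delta cells, at 86.3 in SpopβKO and 106 in Spop fl/fl, is farthest above beta and alpha cells. PP cells have 3.07 of Hhex in SpopβKO and 8.02 in Spop fl/fl. Rbp4 is at the alpha level and Pyy is highest in PP cells.

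Receptors known from delta cells were sparse. Of the 27 listed, only Glp1r and Gria2 reached a mean of 50 CPM, the minimum for comparing libraries, and 7 in SpopβKO and 5 in Spop fl/fl delta cells had no UMI. Ffar4, a fatty acid receptor, had 32.4 in SpopβKO and 42.6 in Spop fl/fl delta cells, close to its alpha levels of 28.4 in SpopβKO and 34.8 in Spop fl/fl. Crhr1, Lepr and Dcc had no UMI in either library, which leaves levels under the floor undetectable. Among the 5 somatostatin receptors Sstr3 had the most RNA, 30.7 in SpopβKO and 29.5 in Spop fl/fl delta cells, and Sstr4 and Sstr5 had no UMI. Ptprz1, a receptor-type phosphatase, had 36.3 in SpopβKO and 30.2 in Spop fl/fl delta cells, and at most 1.51 in beta or alpha cells.

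Mesenchymal, endothelial and blood cell markers were low. Summed levels were 2.27 CPM in SpopβKO and 2.06 in Spop fl/fl delta cells for 10 mesenchymal markers, and 10.8 in SpopβKO and 13.0 in Spop fl/fl for 8 endothelial markers. Macrophage markers summed to 34.1 in SpopβKO and 16.5 in Spop fl/fl, with Csf1r, Adgre1 and Ptprc at 0 in both. Lymphocyte markers summed to 2.84 in SpopβKO and 11.0 in Spop fl/fl, glial markers to 19.3 in SpopβKO and 23.3 in Spop fl/fl, and the epsilon hormone Ghrl was at 0. Ductal markers were higher, at 1035 in SpopβKO and 935 in Spop fl/fl, carried by the keratins Krt7, Krt8 and Krt18 and by Spp1, but alpha cells had 1009 in SpopβKO and 711 in Spop fl/fl. Acinar markers summed to 113 in SpopβKO and 63.9 in Spop fl/fl, above alpha cells, with 12.8 in SpopβKO and 26.01 in Spop fl/fl, and beta cells, with 38.7 in SpopβKO and 4.81 in Spop fl/fl. Cela1, an elastase, made up 104 of the SpopβKO and 40.5 of the Spop fl/fl sum, while Prss2, Cpa1, Cel, Try4 and Clps were at 0 in both.

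RNA of other islet hormones was present and differed between the libraries. Insulin took a median of 1.54% of a delta cell's UMIs in the SpopβKO library and 0.263% in the Spop fl/fl library. Alpha cells moved the same way, with 1.11% in SpopβKO and 0.296% in Spop fl/fl, and so did PP cells, with 1.20% in SpopβKO and 0.319% in Spop fl/fl. Glucagon ran the other way, with medians of 0.0464% in SpopβKO and 0.112% in Spop fl/fl delta cells. It was unevenly spread, with upper quartiles of 0.127% in SpopβKO and 0.378% in Spop fl/fl and highest shares of 2.996% and 2.968%. Summed over the delta cells at 0.05 to 0.5% Sst, Gcg exceeded Sst. Gcg had 6735 CPM and Sst 1445 in SpopβKO, and Gcg had 7888 and Sst 1648 in Spop fl/fl. A minority of cells rich in glucagon RNA thus weighs on the summed values. The 12 beta markers summed to 44922 CPM in SpopβKO and 19308 in Spop fl/fl delta cells, against 22794 in SpopβKO and 12916 in Spop fl/fl alpha cells. Outside the hormones, Mafa, a beta-cell factor, had 71.5 in SpopβKO and 22.7 in Spop fl/fl delta cells, with a mean under the minimum for comparing libraries. The part of free RNA and of doublets, which were not removed, was not tested.

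Pyy differed along the range of Sst RNA. Because Sst chose the cells, the steps of its share are a description. At 0.05 to 0.1, 0.1 to 0.2, 0.2 to 0.5, 0.5 to 1 and at least 1% Sst there were 28, 42, 30, 19 and 11 SpopβKO delta cells and 29, 19, 32, 13 and 8 Spop fl/fl delta cells. Pyy over these steps was 3199, 3332, 9049, 19943 and 34029 CPM in SpopβKO delta cells, and 2731, 3525, 4341, 7770 and 9319 in Spop fl/fl delta cells. In coarser steps of 0.05 to 0.5, 0.5 to 5 and at least 5% Sst, the last with 2 SpopβKO and 3 Spop fl/fl cells, Pyy was 4551, 25768 and 14970 in SpopβKO and 3462, 7868 and 21398 in Spop fl/fl delta cells. The order over the finer steps thus did not hold in the coarser steps of the SpopβKO library. Ppy, the PP hormone, moved too: over the finer steps it was 873, 1056, 1258, 3817 and 2473 in SpopβKO delta cells, and 1698, 615, 770, 1912 and 6258 in Spop fl/fl delta cells.

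Hhex was lowest in the lowest Sst step of both libraries. It was 37.5, 80.7, 121, 135 and 202 CPM over the steps in SpopβKO delta cells, and 89.2, 115, 96.9, 180 and 110 in Spop fl/fl delta cells. In the coarser steps it was 72.6, 157 and 243 in SpopβKO and 97.2, 122 and 514 in Spop fl/fl delta cells, the last on 3 SpopβKO and 8 Spop fl/fl UMIs. The Hhex values thus rose over the coarser steps of both libraries and the finer SpopβKO steps, but not over the finer Spop fl/fl steps. Some counting intervals of the coarser steps overlapped. In Spop fl/fl the lowest step ran from 80.1 to 117 and the middle step from 84.7 to 171. In SpopβKO the middle step ran from 112 to 212 and the highest from 50.1 to 709. Ddit3, the stress-response factor CHOP, was 1177, 1215, 964, 640 and 395 in SpopβKO delta cells, and 1211, 1038, 1165, 942 and 925 in Spop fl/fl delta cells. Insulin RNA and depth moved with the steps: Ins2 was 36143 in the lowest and 11471 in the highest SpopβKO step, and 17823 in the lowest and 5630 in the highest Spop fl/fl step. The median depth was 20635.5 UMIs in the lowest and 7051 in the highest SpopβKO step, and 15653 in the lowest and 19356.5 in the highest Spop fl/fl step. The part of insulin RNA, Ppy and depth in the values of Hhex, Pyy and Ddit3 was not tested.

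**Figure D3:**
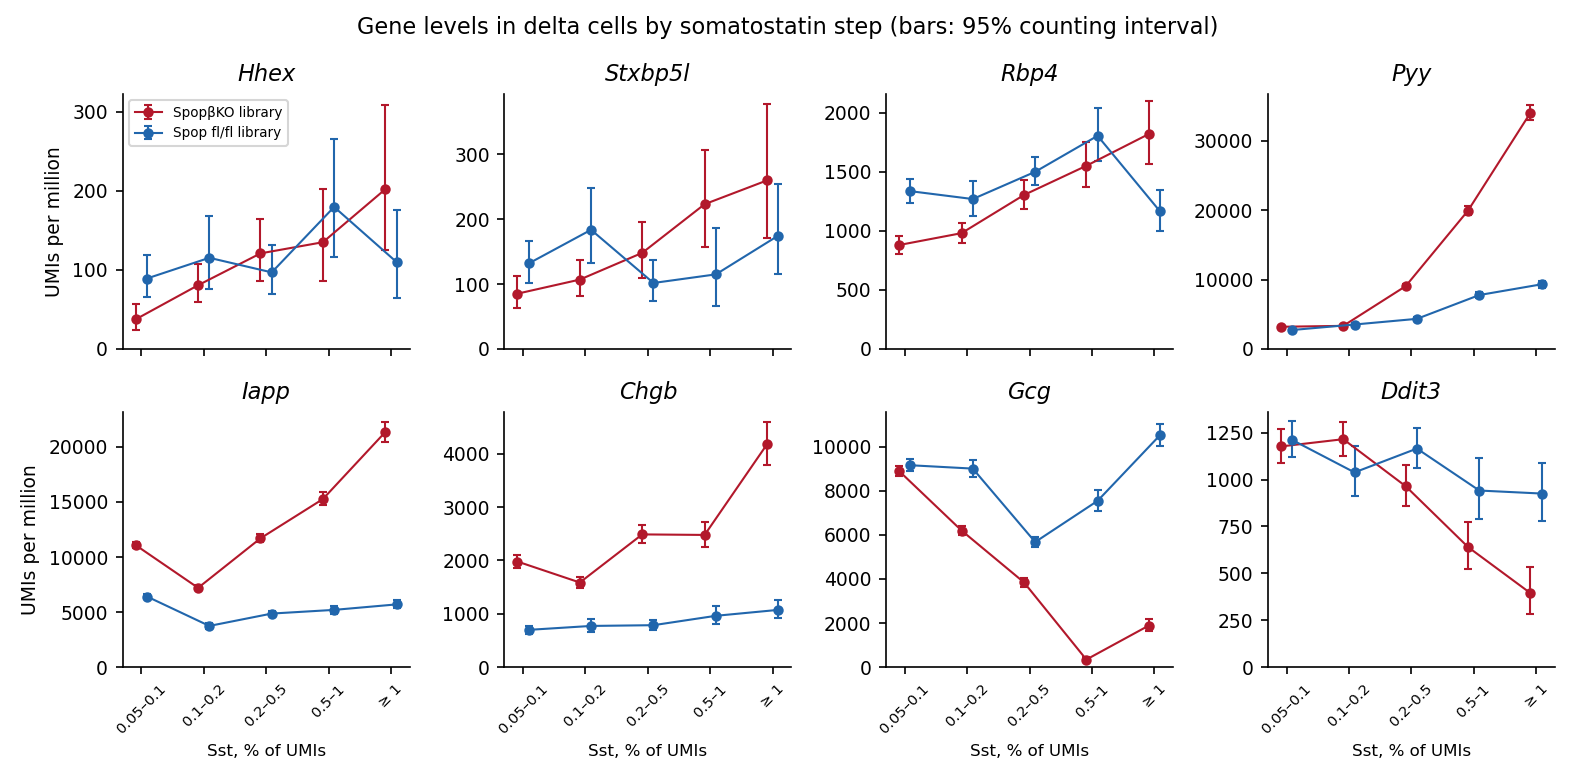
CPM, summed over the delta cells of each step of the Sst share, for 8 genes in the SpopβKO library (red) and the Spop fl/fl library (blue), with exact Poisson 95% intervals as bars. Pyy is 34029 in the top SpopβKO step and 9319 in the top Spop fl/fl step, and Ddit3 is 395 in the top SpopβKO step and 925 in the top Spop fl/fl step.

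Hhex and insulin RNA differed with depth. The 35 SpopβKO delta cells above 20000 UMIs had 46.3 Hhex and 38344 Ins2 CPM, and the 59 with 3000 to 10000 UMIs had 171 Hhex and 11217 Ins2. In the Spop fl/fl library the 25 deep cells had 90.8 Hhex and 20262 Ins2, and the 44 with 3000 to 10000 UMIs had 144 Hhex and 2792 Ins2. Between these ranges the deeper cells of both libraries held less Hhex and more insulin RNA relative to their total. The order did not extend to cells under 3000 UMIs, where Ins2 was 25654 in 9 SpopβKO and 8228 in 4 Spop fl/fl delta cells, and Hhex had 5 UMIs in SpopβKO and 0 in Spop fl/fl.

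Between the libraries, counts summed over delta cells were scaled by TMM (trimmed mean of M values) and compared for the 3551 genes with a mean of at least 50 CPM. A gene was past the fold when its ratio reached 1.5 and its counting interval excluded no difference. In SpopβKO delta cells 77 genes were higher (percent called 2.17) and 43 lower (percent called 1.21) than in Spop fl/fl delta cells, 3.38% in either direction. Without scaling the split was 50 higher and 56 lower. The median log2 ratio of all 3551 genes was 0.04. Of the 77 higher genes 67 were above 0 in beta and 68 in alpha cells, where 41.3% and 57.3% of all 3551 genes were, and 38 were past the fold in beta and 11 in alpha cells. Of the 43 lower genes 33 were below 0 in beta and 36 in alpha cells, where 58.7% and 42.7% of all genes were, and 9 were past the fold in beta and 6 in alpha cells. In beta cells 2 of the higher and 1 of the lower genes were past the fold in the opposite direction. The shares of all 3551 genes past the fold in beta and in alpha cells were not counted. The numbers past the fold there therefore have no background, and whether they are unusual was not tested.

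Spop and its partners did not pass the fold in delta cells. Spop (ENSMUSG00000057522, chr11:95414080-95493406, plus strand, mm10) had 90.7 CPM in SpopβKO and 64.1 in Spop fl/fl delta cells, a log2 ratio of 0.50 (0.12 to 0.88). Its paralog Spopl had 44.5 in SpopβKO and 50.6 in Spop fl/fl delta cells, and the scaffold Cul3 had 133 in SpopβKO and 121 in Spop fl/fl delta cells. Of 6 CUL3 ligase genes measured, 5 were higher, 1 was lower and 0 were past the fold, with a median of 0.13.

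Of all 3551 genes, 56.6% had ratios above 0 and 43.4% below 0, and 2.17% were higher and 1.21% lower past the fold. These shares are the background for the lists that follow. Of 17 prohormone-processing and granule genes measured, 4 were higher past the fold and 0 lower, and 16 had ratios above 0, with a median log2 ratio of 0.35, against 0.04 over all genes. The list's median was 0.47 in beta and 0.11 in alpha cells. Chgb (ENSMUSG00000027350), chromogranin B of the granule core, whose promoter is printed above, had 2163 CPM in SpopβKO and 787 in Spop fl/fl delta cells, a log2 ratio of 1.46 (1.36 to 1.55). Chga, chromogranin A, had 2203 in SpopβKO and 907 in Spop fl/fl delta cells, a log2 ratio of 1.28 (1.19 to 1.37). Both were also higher in alpha cells, with log2 ratios of 1.06 for Chgb and 0.67 for Chga.

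Part of this difference was smaller among delta cells with little insulin RNA. The prohormone convertase Pcsk1 had 72.2 CPM in SpopβKO and 38.5 in Spop fl/fl delta cells, and Nucb2, the nesfatin precursor, had 150 in SpopβKO and 82.3 in Spop fl/fl delta cells. The limit of 1% insulin kept 39 of 130 SpopβKO but 80 of 101 Spop fl/fl delta cells. The SpopβKO cells it kept had a median insulin share of 0.743%, against 0.263% over all Spop fl/fl delta cells, so insulin was not matched. Below 1% insulin the log2 ratios were 0.76 for Chgb, 0.45 for Chga, 0.07 for Pcsk1 and 0.56 for Nucb2. Chgb alone of the 4 was past the fold there. The list's median there was 0.17, whereas it was 0.66 among delta cells of 3000 to 10000 UMIs. Pcsk2 and Cpe, which process prosomatostatin and other prohormones, had log2 ratios of 0.13 and −0.03 over all delta cells.

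The islet peptides Iapp and Pyy were higher too. Iapp, islet amyloid polypeptide, had 11144 CPM in SpopβKO and 5265 in Spop fl/fl delta cells, a log2 ratio of 1.08 (1.04 to 1.12), and of 0.65 below 1% insulin. Pyy had 7914 in SpopβKO and 4417 in Spop fl/fl delta cells, a log2 ratio of 0.84 (0.80 to 0.88), and of 0.78 below 1% insulin. Single cells overlapped widely: Pyy ran from 0 through a median of 2126 to 117913 CPM in SpopβKO delta cells and from 0 through 1679 to 65246 in Spop fl/fl delta cells.

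Enpp2 had the highest ratio of the ranked genes. This gene (ENSMUSG00000022425, chr15:54838901-54952892, minus strand, mm10) encodes autotaxin, which makes lysophosphatidic acid. It had 256 CPM in SpopβKO and 49.9 in Spop fl/fl delta cells, a log2 ratio of 2.36 (2.003 to 2.736), against 3.75 in beta and 1.94 in alpha cells. Below 1% insulin Enpp2 had 93.0 in SpopβKO and 52.8 in Spop fl/fl delta cells, a log2 ratio of 0.82.

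Ddc, the aromatic amino acid decarboxylase, had 83.2 CPM in SpopβKO and 19.6 in Spop fl/fl delta cells. Prlr, the prolactin receptor, had 106 in SpopβKO and 32.4 in Spop fl/fl delta cells. Neither was called past the fold below 1% insulin. The log2 ratios there, 0.77 for Ddc and 0.95 for Prlr, were still larger than that fold. The calls were lost because the level fell under the minimum or the counting interval no longer excluded no difference. Whether the differences themselves were smaller in these cells was not tested. The rest of the 12 were Cela1 (1.41), Gsdma (1.29), B2m (1.09), Gm10076 (1.01) and Wnt4 (0.93), all log2 ratios.

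Of 5 interferon and antigen presentation genes measured, the class I genes B2m, H2-K1 and H2-D1 were higher past the fold, against 2.17% of all genes. The list had 4 ratios above 0, against 56.6% of all genes, with a median log2 ratio of 0.62 in delta, 0.64 in beta and 0.47 in alpha cells. B2m, the class I light chain, had 202 CPM in SpopβKO and 94.5 in Spop fl/fl delta cells, a log2 ratio of 1.09 (0.81 to 1.39). Below 1% insulin it had 206 in SpopβKO and 58.9 in Spop fl/fl delta cells. The heavy chains H2-K1 and H2-D1, whose near-identical copies make their counts uncertain, had log2 ratios of 0.71 and 0.62, and of 0.82 and 0.74 below 1% insulin. Interferon-induced Ifit1 had 24.3 in SpopβKO and 25.6 in Spop fl/fl delta cells, under the minimum for comparison.

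**Figure D4:**
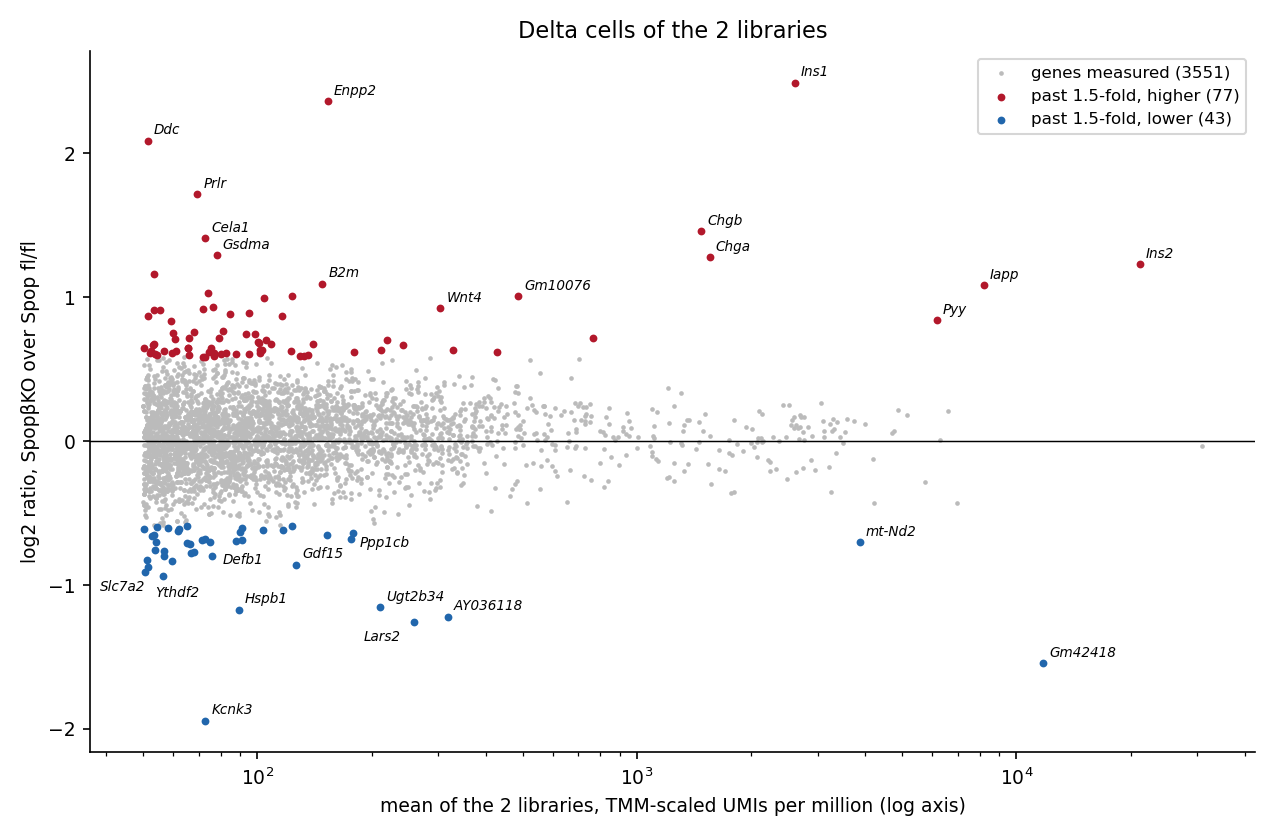
Log2 ratio of SpopβKO over Spop fl/fl delta cells against the mean TMM-scaled level on a log axis for 3551 genes; red points were higher and blue points lower past 1.5-fold, and the ranked genes and the insulin genes are named. There are 77 red and 43 blue points, with Enpp2 at 2.36 and Kcnk3 at −1.94.

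Kcnk3 was the lowest ranked gene by ratio. It encodes the leak potassium channel TASK-1 (ENSMUSG00000049265, chr5:30588170-30625271, plus strand, mm10) and had 30.0 CPM in SpopβKO and 115 in Spop fl/fl delta cells, a log2 ratio of −1.94 (−2.42 to −1.49). Alpha cells had more of it, 184 in SpopβKO and 327 in Spop fl/fl, a log2 ratio of −0.83, and the beta ratio was −1.75. Below 1% insulin the delta ratio was −1.52. Of 10 excitability and calcium genes measured, 8 were higher and 2 lower, with a median of 0.14, and Kcnk3 alone was past the fold. The KATP channel subunits Kcnj11 and Abcc8 had log2 ratios of −0.04 and 0.14.

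Of 10 cytosolic heat shock genes measured, Hspb1 alone was past the fold. Hspb1, 1 of the 14 delta genes, had 54.9 CPM in SpopβKO and 123 in Spop fl/fl delta cells, a log2 ratio of −1.17 (−1.54 to −0.80). Its ratios in beta and alpha cells were −0.23 and −0.15, and the difference between cell types was not tested. The list had 9 ratios below 0, against 43.4% of all genes, with a median of −0.24 in delta and −0.65 in beta cells.

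Of 21 integrated stress response genes measured, 1 was past the fold. The list had 17 ratios below 0, against 43.4% of all genes, with a median log2 ratio of −0.20 in delta and −0.74 in beta cells. Gdf15, a stress-induced cytokine, was that gene, lower with 90.1 CPM in SpopβKO and 163 in Spop fl/fl delta cells. Ddit3 had 1070 in SpopβKO and 1095 in Spop fl/fl delta cells, against 709 in SpopβKO and 1313 in Spop fl/fl beta cells. Of 11 p53 targets measured, 0 were past the fold and 7 had ratios below 0, with a median of −0.17, which was 0.03 under tighter hormone limits. Of 29 chaperones of the endoplasmic reticulum and XBP1 targets, 0 were past the fold and 23 had ratios above 0, against 56.6% of all genes, with a median of 0.16. Hspa5, the chaperone BiP, had 1993 in SpopβKO and 2013 in Spop fl/fl delta cells.

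Immediate early genes, which respond to stimulation and to handling, were mostly higher in SpopβKO delta cells. Of 8 measured, 7 had ratios above 0, against 56.6% of all genes. Fos, Junb and Ier2 were higher past the fold, against 2.17% of all genes. Fos had 99.4 CPM in SpopβKO and 48.6 in Spop fl/fl delta cells, and its log2 ratio was 2.32 in beta and −0.30 in alpha cells. Klf6 was lower past the fold, against 1.21% of all genes, with 50.3 in SpopβKO and 85.7 in Spop fl/fl delta cells. Handling and genotype cannot be told apart with 1 library each.

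Gm42418, AY036118 and Lars2 were lower in all 3 cell types. Gm42418 had 6015 CPM in SpopβKO and 17510 in Spop fl/fl delta cells, a log2 ratio of −1.54, against −1.91 in beta and −1.31 in alpha cells. In delta cells AY036118 had a log2 ratio of −1.22 and Lars2, the mitochondrial leucyl-tRNA synthetase, of −1.26. Gm42418 and AY036118 overlap ribosomal RNA sequence and can collect its reads, which was not tested. The other lower genes of the 12 were Ugt2b34 (−1.16), Ythdf2 (−0.94), Slc7a2 (−0.91), Defb1 (−0.80), mt-Nd2 (−0.70) and Ppp1cb (−0.68), all log2 ratios.

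Identity factors and fusion machinery showed no gene past the fold. Of 10 delta transcription factors measured, 6 were higher and 4 lower, with a median log2 ratio of 0.03, or −0.02 without scaling. Hhex had 87.8 CPM in SpopβKO and 105 in Spop fl/fl delta cells on the TMM scale, and Pax6, an islet factor, had 224 in SpopβKO and 219 in Spop fl/fl delta cells. Of 12 exocytosis genes 8 were higher and 4 lower, with a median of 0.15, and of 5 neural adhesion genes 3 were higher and 2 lower, with a median of 0.07. Of 3 glucose metabolism genes measured, Gpi1, Pkm and Pdha1, 1 was higher and 2 were lower, none past the fold.

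Both receptors that could be compared were past the fold, against 3.38% of all genes in either direction. Glp1r, the GLP-1 receptor, had 139 CPM in SpopβKO and 69.5 in Spop fl/fl delta cells. Below 1% insulin it had 60.4 in SpopβKO and 55.8 in Spop fl/fl delta cells, no longer past the fold. Gria2, an AMPA glutamate receptor subunit, was lower, with 42.2 in SpopβKO and 71.5 in Spop fl/fl delta cells, and was not past the fold below 1% insulin.

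**Figure D5:**
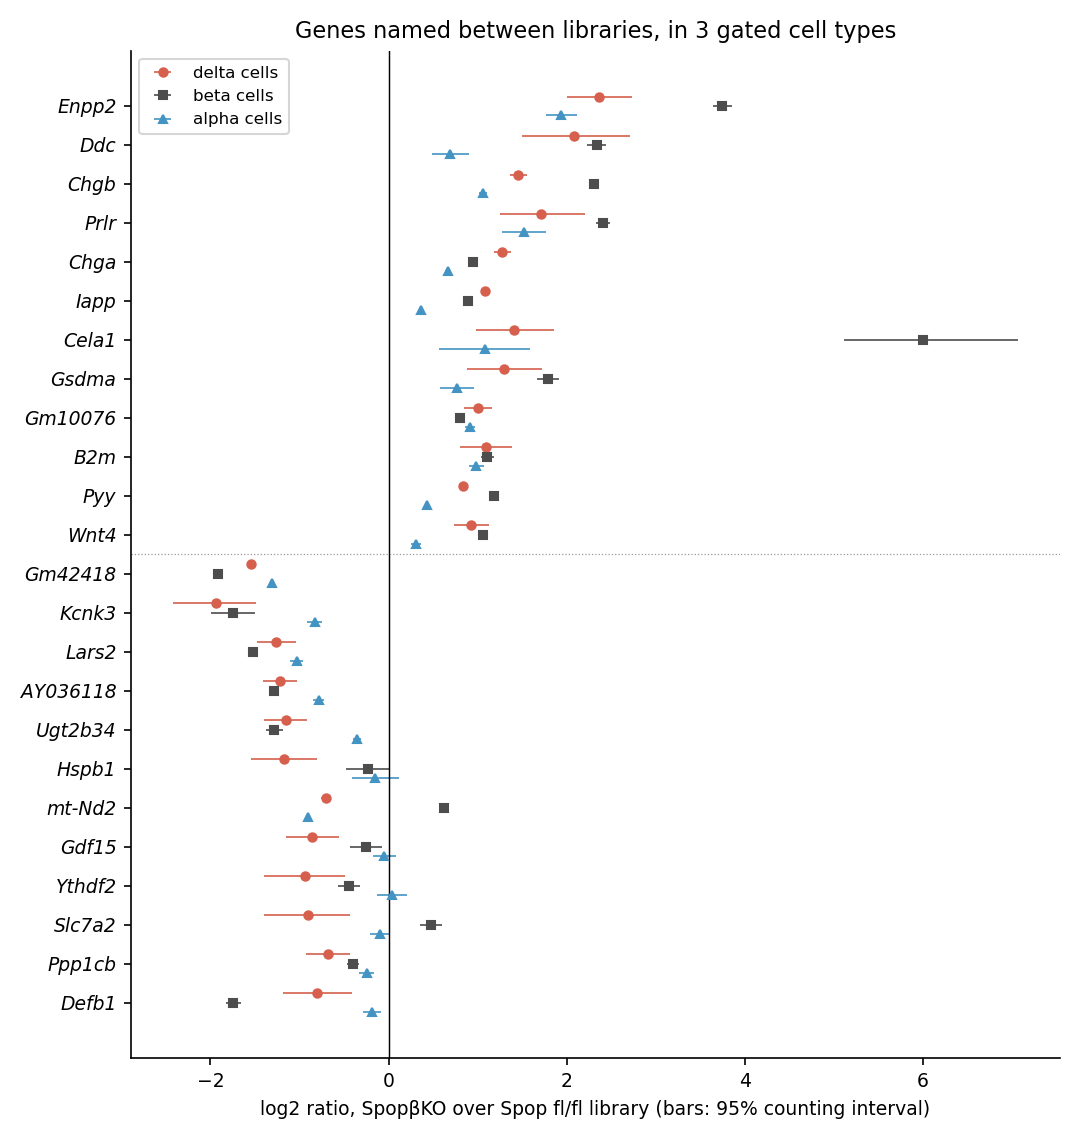
Log2 ratio of the SpopβKO over the Spop fl/fl library for the 12 genes ranked higher and the 12 ranked lower in delta cells, with exact conditional 95% intervals as bars; circles are delta, squares beta and triangles alpha cells. The 12 higher genes are above 0 in each cell type, and mt-Nd2 is at −0.70 in delta, 0.62 in beta and −0.90 in alpha cells.

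Ins1, Ins2 and Ero1lb were past the fold but left out of the ranking, because other cells of both libraries had at least 3 times their level. Their log2 ratios in delta cells were 2.49 for Ins1, 1.23 for Ins2 and 0.92 for Ero1lb. None of the 24 ranked genes changed sign under any of the other gates, depths or scalings tried, but 8 were no longer past the fold among delta cells of 3000 to 10000 UMIs and 6 among those below 1% insulin. These counts include genes whose level fell under the minimum or whose interval no longer excluded no difference, such as Ddc and Prlr below 1% insulin.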

How the data were processed

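Single cells from 2 islet libraries, 1 per genotype, were measured by 10x 3′ sequencing. The deposited values were raw UMI counts for 32285 features per barcode, made by the authors with Cell Ranger 6.0.0, per the file headers. Build mm10, R 4.1.1 and Seurat 4.1.0 are named in the submitters' processing notes. From these counts, cells were gated, summed per library and cell type, and expressed as CPM (per 1000000 UMIs). Symbols on 2 rows (40) were summed. Scaling by TMM followed edgeR 4.0.16 (R 4.3.3), and the computation in Python 3.11.15 (numpy 2.4.6, scipy 1.17.1, pandas 2.3.3, matplotlib 3.10.9) was tested on simulated data. Levels have exact Poisson and ratios exact conditional 95% intervals, which cover counting error only. No doublet caller was run. With 1 library per genotype no p-value was computed.

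The members and the 30 gene lists were chosen with earlier results of these data known. Named genes were Sst, Hhex, Rbp4, Ghsr, Cd24a, Spop, Spopl and Cul3; the 20 genes with the highest ratio of delta over the higher of beta and alpha cells, at 50 CPM or more in delta cells of both libraries; the 12 higher and 12 lower genes between libraries ordered by whichever end of the interval lies closer to a ratio of 1, leaving out genes at least 3 times higher in other cells of both libraries; and up to 4 members of each list, or those its description turns on. Positions are from the mouse annotation of build mm10 and promoters from RefSeq. Alternatives changed the gates, filters, scaling and weighting of cells. Some genes of the ranking and lists are not reported here.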

Additional observations from a re-analysis of the deposited data

Results flagged for a closer look

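In 3 genes the ratios of the SpopβKO over the Spop fl/fl library were past 1.5-fold in opposite directions in delta and beta cells. Dpm1, a subunit of dolichol-phosphate mannose synthase, had a log2 ratio of 0.63 in delta cells (258 CPM in SpopβKO and 166 in Spop fl/fl) and −0.68 in beta cells (180 in SpopβKO and 288 in Spop fl/fl). Tma16 had a log2 ratio of 0.61 in delta cells (72.2 in SpopβKO and 47.2 in Spop fl/fl) and −0.68 in beta cells (43.4 in SpopβKO and 69.7 in Spop fl/fl). The mitochondrial transcript mt-Nd2 had a log2 ratio of −0.70 in delta cells (2942 in SpopβKO and 4790 in Spop fl/fl) and 0.62 in beta cells (3228 in SpopβKO and 2097 in Spop fl/fl). In alpha cells the log2 ratios were 0.11 for Dpm1, 0.06 for Tma16 and −0.90 for mt-Nd2, so mt-Nd2 was lower in both delta and alpha cells. The difference between the cell types was not tested, since there was 1 library per genotype.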

How the results depend on the processing

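No paired analysis was possible because there was 1 library per genotype, and for the same reason no library could be left out. The limits on insulin below 1% or 2%, Sst of at least 0.1% or 0.5%, 3000 to 10000 UMIs and shared barcodes were chosen after seeing the data. With Sst of at least 5%, 2 SpopβKO and 3 Spop fl/fl cells were left, too few for a profile. SpopβKO delta cells numbered 83 with tighter hormone limits, 79 with Hhex, 39 below 1% insulin, 77 below 2%, 30 at 0.5% Sst and 59 at 3000 to 10000 UMIs. Spop fl/fl delta cells numbered 58 with Hhex, 21 at 0.5% Sst and 44 at 3000 to 10000 UMIs.

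The 14 genes higher in delta than in beta and alpha cells became 78 with a minimum of 10 CPM, 173 with a minimum of 1 count, 30 below 1% insulin, 28 below 2%, 25 at 0.5% Sst and 31 at 3000 to 10000 UMIs. The 77 genes higher in SpopβKO delta cells became 196 at 0.5% Sst, 128 at 3000 to 10000 UMIs, 50 unscaled, 299 with a minimum of 10 CPM and 392 with a minimum of 1 count. The 43 lower genes became 81 with tighter hormone limits, 109 below 1% insulin, 79 below 2%, 66 at 0.1% Sst, 149 at 0.5% Sst, 95 at 3000 to 10000 UMIs, 269 with a minimum of 10 CPM and 372 with a minimum of 1 count.

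List medians that moved were those of neural adhesion genes (0.18 below 1% insulin, 0.58 at 0.5% Sst, 0.53 at 3000 to 10000 UMIs), chaperones (0.29 at 0.1% Sst) and granule genes (0.66 at 3000 to 10000 UMIs). At 0.5% Sst so did those of excitability (0.71), exocytosis (0.38), integrated stress response (−0.39) and immediate early genes (1.27). The cause of these shifts was not tested. The summed depth of 1761703 SpopβKO and 1456480 Spop fl/fl UMIs limits the comparison to the more abundant genes.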
